A study of Mus musculus with 17 samples.

Results

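Smooth muscle contractile genes were followed in C2C12 cells, a mouse skeletal myoblast line, that expressed serum response factor (SRF) or a fusion of it. The set was a list of 10 gene symbols (Acta2, Actg2, Tagln, Cnn1, Lmod1, Myh11, Cald1, Des, Smtn and Synpo2), and all 10 were among the 15062 genes of the count table. RNA sequencing of polyadenylated RNA gave 17 libraries in 6 groups. The control group carried the empty vector pMSCV, and the other groups were labelled SRF, SRF-RELA, SRF-ICA1L, SRF-FOXO1 and SRF-PDGFRB, after the construct each line expressed. SRF-PDGFRB had 2 libraries and every other group had 3, and the question was how the lines differ. All lines were kept in the same medium with fetal bovine serum. The labels do not say whether a line is 1 clone or a pool, or whether the libraries of a group came from separate cultures, so p-values measure only the spread between these libraries.

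SRF binds a short DNA element, the CArG box, in the promoters of many muscle and cytoskeletal genes, and needs partner proteins to activate them. With myocardin or the myocardin-related factors it switches on the smooth muscle contractile set, the actins, the myosin heavy chain and the actin-binding proteins that give smooth muscle its tone. In the fusions a second gene joins SRF: FOXO1 is a forkhead transcription factor, ICA1L a protein of vesicle traffic, PDGFRB a receptor tyrosine kinase and RELA the activating subunit of NF-kappaB. Undifferentiated skeletal myoblasts already make some of these proteins, smooth muscle alpha-actin and desmin among them.

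Promoters are shown for Acta2, the one promoter of the set with a near match to the CArG box, and for Lmod1 and Des, the genes with the largest positive and negative fitted change in SRF-FOXO1. The RefSeq promoter table (GRCm38.p6) held entries for 7 of the 10 genes, and none for Actg2, Tagln and Myh11. The 250 bases before each RefSeq start were searched on both strands. No window of the 7 genes held an exact CArG box (CC, a core of A or T, then GG), which 1.47% of 32851 promoter windows hold. Allowing 1 mismatch in the core, Acta2 held 2 matches, 84 to 75 and 34 to 25 bases before the start, against 8.59% of all windows with at least 1. The E-box CAGCTG, a sequence of the kind bound by MyoD-family factors, stood in the windows of Acta2, Lmod1 and Des and in 13% of all windows. In the sequences below, written 5′ to 3′ on the gene's strand, capitals mark these matches, which overlap in no window. A match is a string of letters and does not show binding.
Acta2 (chr19:34255374-34255623, minus strand): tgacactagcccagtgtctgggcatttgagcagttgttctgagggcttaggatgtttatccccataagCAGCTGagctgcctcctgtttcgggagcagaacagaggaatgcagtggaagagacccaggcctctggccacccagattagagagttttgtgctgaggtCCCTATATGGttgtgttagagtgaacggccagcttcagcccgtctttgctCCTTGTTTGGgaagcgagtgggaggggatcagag
Lmod1 (chr1:135324563-135324812, plus strand): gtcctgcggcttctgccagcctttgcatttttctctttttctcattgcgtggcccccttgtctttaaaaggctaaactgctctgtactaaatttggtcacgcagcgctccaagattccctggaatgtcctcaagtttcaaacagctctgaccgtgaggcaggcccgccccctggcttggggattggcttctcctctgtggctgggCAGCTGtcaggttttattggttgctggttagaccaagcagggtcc
Des (chr1:75360042-75360291, plus strand): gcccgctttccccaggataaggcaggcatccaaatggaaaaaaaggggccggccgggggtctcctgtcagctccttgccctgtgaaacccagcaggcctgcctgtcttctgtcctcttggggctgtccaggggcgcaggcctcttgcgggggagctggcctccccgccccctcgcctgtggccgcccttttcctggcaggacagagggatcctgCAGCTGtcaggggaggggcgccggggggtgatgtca

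The 10 genes covered a wide range of levels. Values are CPM, that is, counts relative to library totals adjusted by TMM, and per kilobase of exon where genes are compared. Per kilobase, Acta2 had the highest median over the 17 libraries, 992 CPM, followed by Des with 81.2, Cald1 with 74.7 and Actg2 with 50.1. Smtn had a median of 18.4 CPM per kilobase, Cnn1 of 3.64, Lmod1 of 3.19 and Synpo2 of 3.18. Tagln, at 0.472, and Myh11, at 0.0290, were close to absent from the counts: Tagln had 5 to 81 counts in a library, and Myh11 reached 10 counts in only 3 libraries. Acta2, Des and Cald1 thus had many counts in these myoblasts, while Myh11 and Tagln, standard markers of smooth muscle, had few. For Tagln, few counts need not mean little RNA, because of the shared exon bases described next.

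Tagln carries a limit of its own. In the GENCODE M21 annotation of GRCm38 the gene lies at chr9:45929619-45936058 on the minus strand, and 62.4% of its exon bases are shared with the antisense gene Gm48529 and 5.43% with Pcsk7, both on the opposite strand. Gm48529 had 7 to 27 counts in a library. Reads from shared bases can be told apart only if counting used the strand, which is not given in the sources used here, and the part of this in the level of Tagln was not tested. Smtn shared 16.3% and Des 5.86% of exon bases with genes of the opposite strand, and the other 7 genes none.

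Totals ran from 20901442 to 23543734 counts a library. The Srf row, which can check the label SRF but not those of the fusions, had 1128 ± 504 CPM (SD, n = 3) in SRF and 81.3 ± 13.7 (n = 3) in pMSCV. It had 87.1 ± 16.98 in SRF-FOXO1, 192 ± 80.4 in SRF-ICA1L, 76.0 ± 7.73 (n = 2) in SRF-PDGFRB and 125 ± 36.1 in SRF-RELA. How many reads of a construct were counted as mouse Srf is not known. One library stood apart in this gene set: pMSCV replicate 1 was the lowest of the 17 for 6 of the 10 genes (Acta2, Actg2, Tagln, Cnn1, Lmod1 and Cald1), while it was lowest for 7.51% of all genes. SRF-RELA replicate 2 was the highest for 6 genes, and how often it is highest over all genes was not counted. SRF-PDGFRB replicate 1 was the lowest for Des and Smtn, and for 7.87% of all genes. In pMSCV, SRF, SRF-ICA1L and SRF-RELA, libraries with the same replicate number deviated together across all genes, so a second fit of those 12 libraries used the number as a block. It kept 9 of the 10 genes, since Myh11 was too low. Single genes of the set need not follow the number. For Acta2, Actg2 and Cnn1, number 3 was the highest library of pMSCV and of SRF but the lowest of SRF-ICA1L and of SRF-RELA. Des was lowest in number 1 in each of these groups. A gene is called at an adjusted p under 0.05 over all genes tested.

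**Figure D1:**
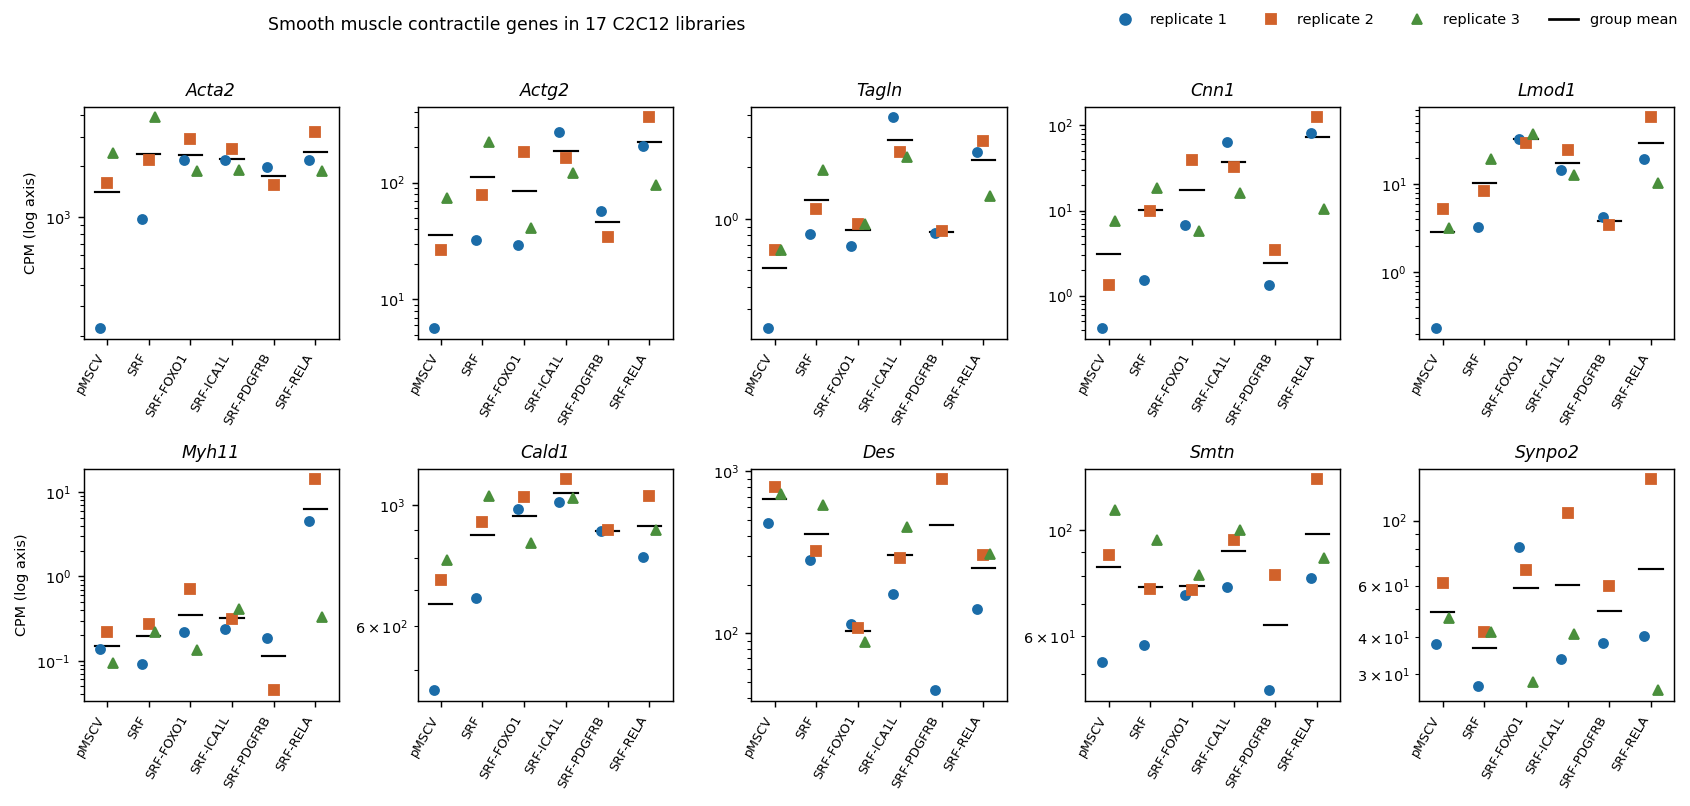
Level of each gene in each library, in CPM on a log axis, by group on the horizontal axis; symbols mark the replicate number and bars the group mean. Actg2, Cnn1 and Lmod1 are highest in a fusion group and lowest in pMSCV replicate 1, while Des is highest in SRF-PDGFRB replicate 2 and lowest in SRF-PDGFRB replicate 1.

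Positions are from GENCODE M21 on GRCm38, whose starts can differ from those of RefSeq. The actins of the set are Acta2, the smooth muscle alpha-actin of vessel walls (chr19:34241090-34255590, minus strand), and Actg2, the gamma-actin of gut and bladder muscle (chr6:83512905-83536265, minus strand). Acta2 had 221.5, 1592 and 2414 CPM in pMSCV replicates 1 to 3, 973, 2187 and 3902 in SRF, and 2186, 2923 and 1883 in SRF-FOXO1. It had 2179, 2538 and 1915 CPM in SRF-ICA1L, 1978 and 1547 in SRF-PDGFRB, and 2194, 3194 and 1891 in SRF-RELA. The levels overlapped in all groups, and apart from pMSCV replicate 1 and SRF replicate 1 every library lay within the range 1547 to 3902. No comparison reached an unadjusted p of 0.05 for Acta2.

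Actg2 spread far more. It had 5.67, 26.7 and 74.1 CPM in pMSCV, 32.3, 78.0 and 223.5 in SRF, and 29.1, 182.6 and 41.1 in SRF-FOXO1. It had 271 CPM, 162 and 121 in the 3 SRF-ICA1L libraries, 57.1 and 34.5 in SRF-PDGFRB, and 205.8, 362 and 95.96 in SRF-RELA. Every SRF-ICA1L and SRF-RELA library lay above every pMSCV library, whereas SRF, SRF-FOXO1 and SRF-PDGFRB overlapped pMSCV. The group means fell in the order SRF-RELA (221 CPM), SRF-ICA1L (185), SRF (111), SRF-FOXO1 (84.3), SRF-PDGFRB (45.8) and pMSCV (35.5), and each neighbouring pair overlapped. Against pMSCV the fitted log2 fold change was 2.38 (SE 0.93, adjusted p = 0.721, edgeR) in SRF-ICA1L and 2.64 (SE 0.94, adjusted p = 0.512) in SRF-RELA, neither past the threshold. The difference depended on the replicate number: SRF-RELA exceeded pMSCV by 5.06 on the log2 scale in number 1, 3.74 in number 2 and 0.37 in number 3.

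Cnn1 (chr9:22099216-22109630, plus strand), calponin, binds the thin filament and restrains the myosin ATPase, and it had the widest range of the actin-binding proteins. Its levels were 0.415, 1.32 and 7.62 CPM in pMSCV, 1.54, 9.97 and 18.6 in SRF, and 6.84, 39.4 and 5.75 in SRF-FOXO1. They were 64.5, 32.6 and 16.02 CPM in SRF-ICA1L, 1.33 and 3.47 in SRF-PDGFRB, and 81.8, 124.7 and 10.4 in SRF-RELA. SRF-ICA1L and SRF-RELA stood wholly above pMSCV and SRF-PDGFRB, though the third SRF-RELA library came close to the third pMSCV library. Mean levels ran from 72.3 ± 57.7 CPM (SD, n = 3) in SRF-RELA over 37.7 ± 24.6 in SRF-ICA1L to 3.12 ± 3.92 in pMSCV and 2.40 ± 1.51 (n = 2) in SRF-PDGFRB, with SRF-FOXO1 (17.3) and SRF (10.0) between. Neighbours in that order overlapped. Against pMSCV the log2 fold change was 3.60 (SE 1.22, adjusted p = 0.670, edgeR) in SRF-ICA1L and 4.54 (SE 1.27, adjusted p = 0.413) in SRF-RELA. Against SRF it was 2.85 (SE 1.16, adjusted p = 0.975, edgeR) in SRF-RELA. Within replicate numbers, SRF-RELA exceeded pMSCV by 6.49, 6.10 and 0.43 on the log2 scale and SRF-ICA1L by 6.15, 4.18 and 1.02, in the order of numbers 1 to 3.

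Lmod1 (chr1:135324807-135368065, plus strand), leiomodin 1, starts new actin filaments in smooth muscle, and it had the largest fitted change of the set in SRF-FOXO1. It had 0.231, 5.25 and 3.18 CPM in pMSCV, 3.23, 8.28 and 19.2 in SRF, and 32.2, 29.4 and 37.3 in SRF-FOXO1. It had 14.5, 24.4 and 12.6 CPM in SRF-ICA1L, 4.22 and 3.47 in SRF-PDGFRB, and 19.2, 57.4 and 10.4 in SRF-RELA. SRF-FOXO1 was the most even group, 32.9 ± 4.02 CPM (SD, n = 3) against 2.88 ± 2.52 (n = 3) in pMSCV, and it, SRF-ICA1L and SRF-RELA each lay wholly above pMSCV. The log2 fold change against pMSCV was 3.51 in SRF-FOXO1 (SE 0.87, adjusted p = 0.0579, edgeR), a call that depended on the tool, since DESeq2 made it (adjusted p = 0.000698). It was 3.32 in SRF-RELA (SE 0.86, adjusted p = 0.393), 2.57 in SRF-ICA1L (SE 0.84, adjusted p = 0.662) and 1.82 in SRF (SE 0.82, adjusted p = 0.990). With the block, Lmod1 was called higher in SRF-RELA than in pMSCV (log2 fold change 3.48, SE 0.79, adjusted p = 0.0315, edgeR). That call held in 1 of 6 fits that each left out 1 library of the pair (adjusted p from 0.0246 to 0.125) and was lost without pMSCV replicate 1 (log2 fold change 2.96).

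Tagln, transgelin or SM22, is an actin-bundling protein of the calponin family. It had 0.231, 0.661 and 0.654 CPM in pMSCV, 0.818, 1.14 and 1.92 in SRF, and 0.697, 0.938 and 0.936 in SRF-FOXO1. It had 3.90, 2.46 and 2.29 CPM in SRF-ICA1L, 0.827 and 0.845 in SRF-PDGFRB, and 2.45, 2.83 and 1.35 in SRF-RELA. All 14 libraries outside pMSCV lay above its 3, and SRF-ICA1L was the highest group. In the fit of all libraries the log2 fold change against pMSCV was 2.47 in SRF-ICA1L (SE 0.47, adjusted p = 0.413, edgeR), 2.09 in SRF-RELA (SE 0.46, adjusted p = 0.288) and 1.32 in SRF (SE 0.46, adjusted p = 0.990). With the block Tagln was called higher in SRF-ICA1L (2.50, SE 0.50, adjusted p = 0.0278, edgeR) and in SRF-RELA (2.11, SE 0.50, adjusted p = 0.0323). When 1 library of the pair was left out, the call held in 3 of 6 such fits for SRF-ICA1L (adjusted p from 0.0400 to 0.118) and in 2 of 6 for SRF-RELA (from 0.0366 to 0.140), and without pMSCV replicate 1 in neither. These values rest on few counts and on the shared exon bases given above.

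Cald1 (chr6:34598500-34775473, plus strand), caldesmon, blocks myosin from actin until calcium rises, and its non-muscle form occurs in most cells. Cald1 had 459 CPM, 729 and 791 in pMSCV, 676.5, 930.2 and 1036 in SRF, and 981, 1032 and 853 in SRF-FOXO1. Its levels were 1013, 1112 and 1030.0 CPM in SRF-ICA1L, 895 and 899 in SRF-PDGFRB, and 803, 1036 and 899.7 in SRF-RELA. The whole range was 2.42-fold, and every fusion library lay above every pMSCV library. The log2 fold change against pMSCV was 0.67 (SE 0.20, adjusted p = 0.662, edgeR) in SRF-ICA1L, 0.53 (SE 0.20, adjusted p = 0.157) in SRF-FOXO1 and 0.47 (SE 0.20, adjusted p = 0.583) in SRF-RELA. With the block Cald1 was called higher in SRF-ICA1L (0.72, SE 0.15, adjusted p = 0.0337, edgeR). The call held in 2 of 6 fits that left out 1 library (adjusted p from 0.0328 to 0.177) and was lost without pMSCV replicate 1.

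Smtn (chr11:3517523-3540612, minus strand), smoothelin, and Synpo2 (chr3:123076519-123236149, minus strand), the Z-disc protein myopodin, are actin-binding proteins that did not separate the groups. Smtn had 52.9, 88.8 and 110.1 CPM in pMSCV, 57.5, 75.3 and 95.4 in SRF, 73.0, 75.0 and 80.5 in SRF-FOXO1, 75.9, 95.4 and 100.1 in SRF-ICA1L, 46.1 and 80.4 in SRF-PDGFRB, and 79.5, 127.9 and 87.5 in SRF-RELA. Synpo2 had 38.1, 61.5 and 46.7 CPM in pMSCV, 27.3, 41.6 and 41.7 in SRF, 81.4, 67.7 and 28.1 in SRF-FOXO1, 33.8, 106.4 and 40.9 in SRF-ICA1L, 38.3 and 59.7 in SRF-PDGFRB, and 40.4, 138.0 and 26.4 in SRF-RELA. Both genes overlapped pMSCV in every group, and the second libraries of SRF-ICA1L and SRF-RELA were the highest for Synpo2. Neither gene reached an unadjusted p of 0.05 in any of the 15 comparisons.

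Myh11 (chr16:14194535-14291372, minus strand), the smooth muscle myosin heavy chain, is the marker most closely tied to the differentiated smooth muscle cell. It had 0.138, 0.220 and 0.0935 CPM in pMSCV (3, 5 and 2 counts), 0.0909, 0.274 and 0.218 in SRF (2, 6 and 5 counts), and 0.218, 0.703 and 0.134 in SRF-FOXO1 (5, 15 and 3 counts). It had 0.241, 0.312 and 0.412 CPM in SRF-ICA1L (5, 7 and 9 counts) and 0.184 and 0.0445 in SRF-PDGFRB (4 counts and 1). In SRF-RELA it had 4.50 CPM, 14.2 and 0.326, from 92 counts, 310 and 7. So 2 of the 3 SRF-RELA libraries stood far above all others, and the third lay among the SRF-ICA1L libraries. Only those 2 and SRF-FOXO1 replicate 2 reached 10 counts, and every gene of the table did so in at least 3 libraries. Myh11 is thus in the table largely through the group where it is high. A test of Myh11 with SRF-RELA, here or below, is not independent of that and gives no separate support. The log2 fold change of SRF-RELA was 5.33 against pMSCV (SE 1.09, adjusted p = 0.288, edgeR) and 4.98 against SRF (SE 1.06, adjusted p = 0.975). Without SRF-RELA replicate 2 the log2 fold change against pMSCV was 3.95 (adjusted p = 0.692, edgeR). With the block and no filter on low counts, Myh11 was called in SRF-RELA against pMSCV (4.96, adjusted p = 0.0158, edgeR) but not against SRF (4.53, adjusted p = 0.0597). Against so few counts in the control, a fitted fold change of Myh11 depends on the prior count and is no bound.

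Des (chr1:75360329-75368579, plus strand), desmin, is the intermediate filament of smooth, cardiac and skeletal muscle alike, and it was the gene of the set whose levels lay below pMSCV in most fusions. It had 481 CPM, 806 and 728.5 in pMSCV, 284, 324 and 624 in SRF, and 114, 108.0 and 88.5 in SRF-FOXO1. It had 176, 290.2 and 455 CPM in SRF-ICA1L, 44.5 and 892.5 in SRF-PDGFRB, and 142, 305 and 308.0 in SRF-RELA. SRF-FOXO1, SRF-ICA1L and SRF-RELA lay wholly below pMSCV, SRF-FOXO1 also lay wholly below SRF, SRF-ICA1L and SRF-RELA, and the SRF-PDGFRB libraries were the lowest and the highest of the 17. Ordered by mean level, neighbouring groups overlapped for each of the 10 genes, except that Tagln was wholly higher in SRF-PDGFRB than in pMSCV and Des wholly higher in SRF-RELA than in SRF-FOXO1. How often neighbouring groups overlap over all genes was not counted. In bulk RNA, fewer cells of a type and less RNA in each cell cannot be told apart.

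The log2 fold change of Des in SRF-FOXO1 was -2.70 against pMSCV (SE 0.74, adjusted p = 0.0727, edgeR) and -1.99 against SRF (SE 0.72, adjusted p = 0.205), neither past the threshold. DESeq2 called the difference from pMSCV (adjusted p = 0.00275) and not that from SRF (adjusted p = 0.0606). In the fit of all libraries it was -1.13 in SRF-ICA1L (SE 0.70, adjusted p = 0.879, edgeR) and -1.42 in SRF-RELA (SE 0.71, adjusted p = 0.639). With the block Des was called lower than in pMSCV in SRF-ICA1L (-1.20, SE 0.20, adjusted p = 0.0153, edgeR) and in SRF-RELA (-1.46, SE 0.21, adjusted p = 0.00418). When 1 library of the pair was left out, the SRF-RELA call held in 6 of 6 such fits, with log2 fold changes from -1.66 to -1.34 (adjusted p from 0.0026 to 0.0372). The SRF-ICA1L call held in 3 of 6 (adjusted p from 0.00854 to 0.102) and was lost without pMSCV replicate 1, SRF-ICA1L replicate 1 or SRF-ICA1L replicate 2. Within each replicate number, Des was lower than in pMSCV by 1.75, 1.40 and 1.24 on the log2 scale in SRF-RELA, in the order of numbers 1 to 3.

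Skeletal muscle markers were measured beside Des. The summed level of 5 myoblast markers (Myod1, Myf5, Cdh15, Pax7 and Chrna1, all in the table) was 444 to 939 CPM in pMSCV, 300 to 604 in SRF, 73.5 to 95.4 in SRF-FOXO1, 194 to 513 in SRF-ICA1L and 136 to 299 in SRF-RELA. In SRF-PDGFRB it was 38.6 CPM in replicate 1 and 967 in replicate 2, the libraries in which Des was lowest and highest. The summed level of the 7 myotube markers in the table, of 8 listed, was 128 to 227 CPM in pMSCV, 21.6 to 59.8 in SRF, 10.1 to 44.4 in SRF-FOXO1, 30.6 to 64.9 in SRF-ICA1L, 12.9 to 141 in SRF-RELA, and 3.26 and 563 in SRF-PDGFRB. With the block, 5 of these 12 markers were called lower than in pMSCV in SRF-ICA1L (Cdh15, Chrna1, Myh3, Myod1 and Myog), against 2.99% of all genes called, and Pax7 had a positive log2 fold change of 0.18 (adjusted p = 0.844, edgeR). In SRF-RELA these 5 and Myf5 and Mymk were called lower, 7 of 12 against 6.48%. The part of these cells in the level of Des was not tested.

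**Figure D2:**
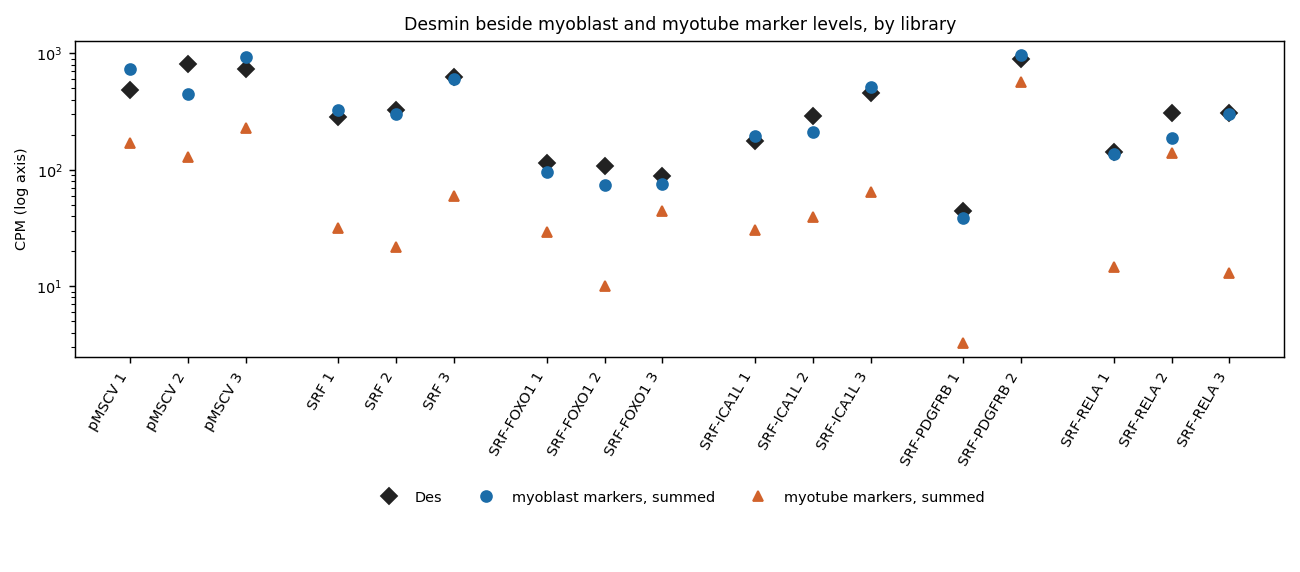
Level of Des and the summed levels of the myoblast and myotube markers in each library, in CPM on a log axis. In SRF-PDGFRB, replicate 1 is low for all of them (Des 44.5 CPM) and replicate 2 high (892.5), and the SRF-FOXO1 libraries are low for Des and the myoblast markers.

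Markers of other cell types were measured too. Fibroblast markers (4 of 5 in the table) summed to between 52.2 and 503 CPM in pMSCV, 64.5 and 135 in SRF, 92.7 and 1922 in SRF-FOXO1, 99.8 and 299 in SRF-ICA1L, 62.4 and 218 in SRF-PDGFRB, and 69.4 and 315 in SRF-RELA. Pericyte markers (2 of 5 in the table) lay between 72.9 and 229.5 CPM in all libraries. Of 3 endothelial markers only Cdh5 was in the table, at 2.72 CPM or less and at 0 in both SRF-PDGFRB libraries, and 2 of 3 leukocyte markers (Cd68 and Lyz2) summed to at most 11.3 CPM. With the block, 1 of the 9 markers of these other cell types that were tested was called in SRF-RELA, the lysozyme gene Lyz2. It was higher than in pMSCV (log2 fold change 2.43, adjusted p = 0.00844, edgeR), where 6.48% of all genes were called. It was also higher than in SRF (2.59, adjusted p = 0.0311, edgeR), where 0.656% were. None was called in SRF-ICA1L, against 2.99% of all genes in the comparison with pMSCV and 0.0956% in that with SRF. Lyz2 had 0.738, 1.54 and 0.0935 CPM in pMSCV and 3.13, 7.89 and 0.933 in SRF-RELA, which overlap. It had 8.50, 5.25 and 6.87 CPM in SRF-FOXO1, which is not in the fit with the block, and 0.867, 5.80 and 0.458 in SRF-ICA1L. The part of these other cell types in the levels of the 10 genes was not tested.

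Taking the set by line, edgeR's test over all 17 libraries called 0 of the 10 genes in each of the 15 comparisons, which share their control libraries. In SRF-RELA against pMSCV, where 0% of all genes were called, 9 of the 10 genes had a positive fold change and the median was 1.44 on the log2 scale, against -0.01 over all genes. Leaving out 1 library gave medians from 1.04 to 1.86. At an unadjusted p under 0.05 it held 6 genes, all higher (Lmod1, Cald1, Actg2, Cnn1, Tagln and Myh11), against 8.05% of all genes. DESeq2 called 4 (Cnn1, Lmod1, Myh11 and Tagln), against 0.712% of all genes. With the block 3 of 9 were called (Tagln and Lmod1 higher, Des lower), against 6.48%, and with no filter on low counts Myh11 as well, against 6.07%. Since Myh11 is in the table largely through SRF-RELA libraries, its place in these counts adds no support.

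In SRF-ICA1L against pMSCV 0% of all genes were called, 9 of the 10 had a positive fold change and the median was 0.87 (0.74 to 1.08 when 1 library was left out). At an unadjusted p under 0.05 it held 5 genes, all higher (Lmod1, Cald1, Actg2, Cnn1 and Tagln), against 6.23% of all genes. DESeq2 called Tagln, against 0.324% of all genes. With the block 3 of 9 were called (Tagln and Cald1 higher, Des lower), against 2.99%. The fit with the block called 0 genes in SRF-ICA1L when pMSCV replicate 1, SRF-ICA1L replicate 1 or SRF-ICA1L replicate 2 was left out. In SRF-RELA it called only Des without pMSCV replicate 1 or 2 or SRF-RELA replicate 1 or 2.

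SRF-FOXO1 differed from pMSCV at 0.71% of all genes, and its median over the 10 genes was 0.73 (0.34 to 0.93 when 1 library was left out). At an unadjusted p under 0.05 it held 3 genes (Lmod1 and Cald1 higher, Des lower), against 20.9% of all genes, a share near the background. DESeq2 called Lmod1 higher and Des lower, against 9.07%. SRF itself differed from pMSCV at 0.00664% of all genes, with a median of 0.58 (0.26 to 0.97) over the 10 genes, 2 of which (Lmod1 and Tagln, both higher) had an unadjusted p under 0.05 against 3.34%. DESeq2 called none of them, against 0.0266% of all genes, and the block none of 9, against 0.0137%. In SRF-PDGFRB against pMSCV, with 0.0199% of all genes called, the median was 0.17 (-0.16 without pMSCV replicate 1, and up to 0.54), none of the 10 reached an unadjusted p of 0.05, against 7.7% of all genes, and DESeq2 called none, against 0.501%.

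**Figure D3:**
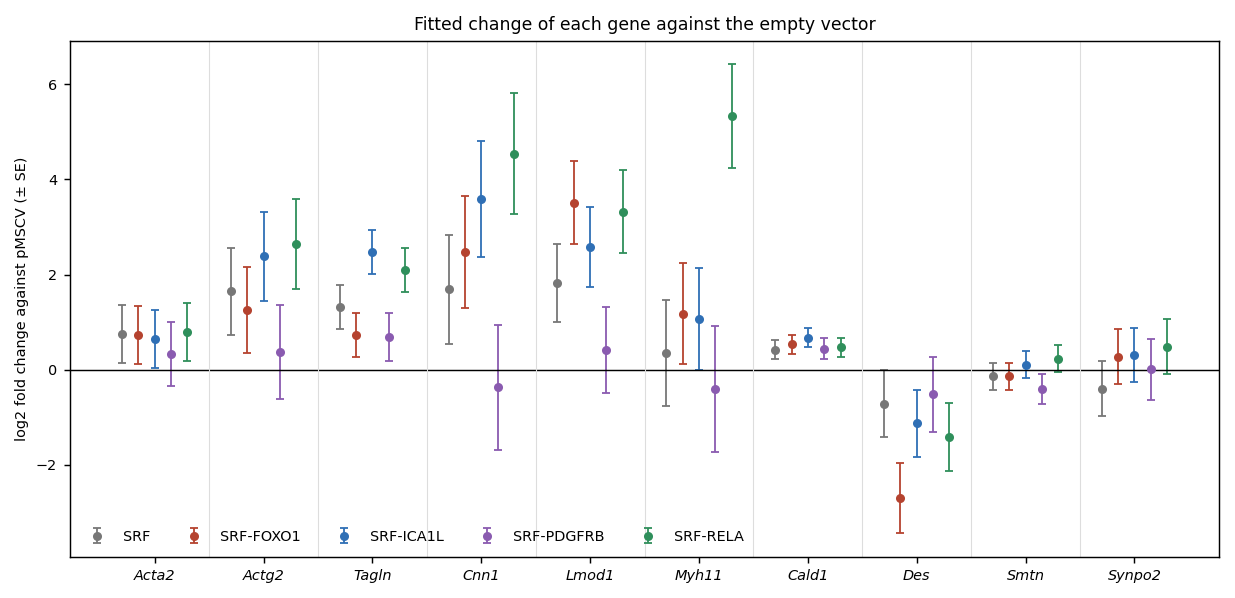
Fitted log2 fold change of each gene against pMSCV, with bars of ± 1 SE, from the edgeR fit of all 17 libraries; colours mark the lines. Myh11 (5.33) and Cnn1 (4.54) in SRF-RELA and Cnn1 in SRF-ICA1L (3.60) lie furthest above 0, followed by Lmod1 in SRF-FOXO1 (3.51). Des in SRF-FOXO1 (-2.70) lies furthest below, and the SRF-PDGFRB values have a median of 0.17.

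Differences from pMSCV were also taken within each replicate number, and the part of the number in the spread was not tested. In SRF, SRF-ICA1L and SRF-RELA, Actg2, Tagln, Cnn1, Lmod1 and Cald1 were higher than in the pMSCV library of the same number in 3 of 3 numbers, and Des was lower in 3 of 3. How many of all genes keep 1 direction in this way was not counted, so nothing particular to the set is read from it. The size of the difference varied: for Lmod1, SRF-ICA1L exceeded pMSCV by 4.36, 2.12 and 1.83 on the log2 scale in numbers 1 to 3, and SRF by 2.35, 0.61 and 2.42. Against SRF instead of pMSCV, Cnn1 in SRF-RELA was higher in 2 of 3 numbers, from -0.80 to 5.33, and Tagln in SRF-ICA1L in 3 of 3, from 0.21 to 1.74. SRF-FOXO1 libraries correlated with the SRF library of the same number at 0.220 to 0.330, but with those of pMSCV at -0.195 to 0.170. In a fit of SRF-FOXO1 and SRF alone with the number as a block, the log2 fold change of Des was -1.88 (SE 0.33, adjusted p = 0.0536, edgeR), not past the threshold, and without the block it was -1.97 (SE 0.32, adjusted p = 0.0436).

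**Figure D4:**
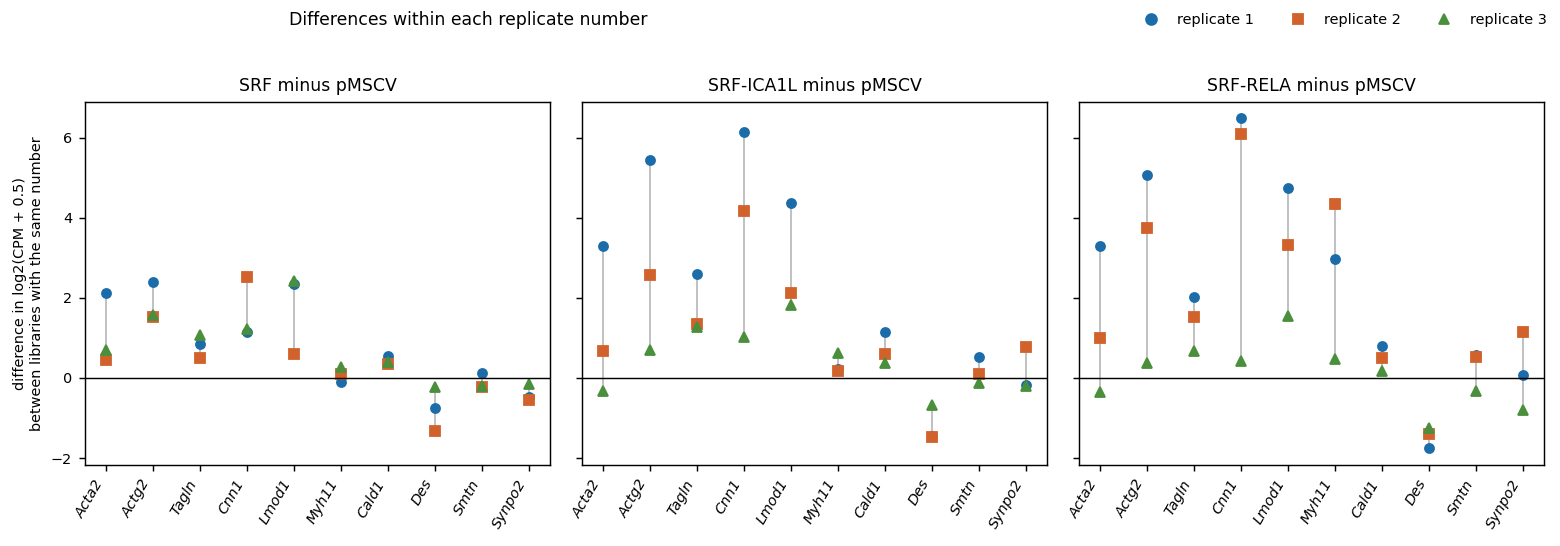
Difference in log2(CPM + 0.5) between libraries with the same replicate number, for SRF, SRF-ICA1L and SRF-RELA minus pMSCV; points mark the numbers and a line their range. Cnn1 in SRF-RELA runs from 0.43 in number 3 to 6.49 in number 1, while Des lies below 0 in all 3 numbers of each line.

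Against SRF, the comparison that asks what a fusion adds to or takes from the unfused protein, edgeR called no gene of the set. SRF-RELA had a median of 0.83, with 0.00664% of all genes called. Leaving out 1 library put this median between 0.29 and 1.15 and that of SRF-ICA1L, 0.71, between 0.31 and 0.81, so their order is not settled. At an unadjusted p under 0.05 it held Cnn1 and Myh11, both higher, against 3.21% of all genes. DESeq2 called Myh11 (log2 fold change 5.04, adjusted p = 0.00371), against 0.0692%, and the block none of 9, against 0.656%. SRF-ICA1L had 0% of all genes called. It held Tagln at an unadjusted p under 0.05 (log2 fold change 1.15, SE 0.44, adjusted p = 0.9998, edgeR), against 1.56%, and DESeq2 (against 0.0133%) and the block (against 0.0956%) called none. SRF-FOXO1 had a median of 0.06 (-0.17 without SRF-FOXO1 replicate 2, -0.10 without SRF replicate 1, and up to 0.59), with 0.00664% of all genes called, and held Des at an unadjusted p under 0.05, against 19.2%. DESeq2 called none of the 10 there, against 4.3%. SRF-PDGFRB had a median of -0.52 (-0.83 to -0.15), with 0.0531% of all genes called, no gene at an unadjusted p under 0.05, against 5.03%, and none called by DESeq2, against 0.386%.

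Between the fusions, SRF-PDGFRB against SRF-RELA had 4 genes at an unadjusted p under 0.05 (Cnn1, Lmod1, Myh11 and Tagln, all lower in SRF-PDGFRB), against 2.7% of all genes. There 0.00664% of all genes were called by edgeR, and DESeq2 called Myh11 (log2 fold change -5.81, adjusted p = 0.00154), against 0.2%. SRF-ICA1L exceeded SRF-PDGFRB at an unadjusted p under 0.05 for Cnn1 (3.97, SE 1.48), Lmod1 (2.16, SE 0.96) and Tagln (1.78, SE 0.52), against 2.2% of all genes. For that pair 0.0332% were called by edgeR and 0.18% by DESeq2, none of them in the set. SRF-FOXO1 exceeded SRF-PDGFRB for Lmod1 (3.10, SE 1.004) and lay below it for Des (-2.18, SE 0.77), against 3.87% of all genes at an unadjusted p under 0.05, 0.0266% called by edgeR and 0.18% by DESeq2. The Des difference turned on which SRF-PDGFRB library was used: it was -3.09 without SRF-PDGFRB replicate 1 and 1.22 without replicate 2.

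Among the 3 fusions with 3 libraries, Tagln set SRF-FOXO1 below SRF-ICA1L (log2 fold change -1.74, SE 0.45) and below SRF-RELA (-1.36, SE 0.45), and Des set it below SRF-ICA1L (-1.57, SE 0.71). Myh11 set SRF-RELA above SRF-FOXO1 (SRF-FOXO1 minus SRF-RELA -4.16, SE 1.001) and above SRF-ICA1L (SRF-ICA1L minus SRF-RELA -4.27, SE 1.01). These differences had an unadjusted p under 0.05, as did 5.94% of all genes between SRF-FOXO1 and SRF-ICA1L, 2.51% between SRF-FOXO1 and SRF-RELA and 0.159% between SRF-ICA1L and SRF-RELA. Both edgeR and DESeq2 called 0% of all genes in these 3 comparisons. The libraries of SRF-ICA1L and SRF-RELA overlapped for each of the 10 genes, which does not show that the lines act alike. Overlap was not counted over all genes, so this count is not particular to the set.

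A second list held 55 other genes of smooth muscle, and 47 were in the table; Myocd, which encodes myocardin, and 7 more were not analysed here. It was chosen with earlier results of these data known. Against pMSCV, its median log2 fold change was 0.19 in SRF-RELA, 0.14 in SRF-ICA1L, 0.11 in SRF-FOXO1, -0.06 in SRF-PDGFRB and -0.10 in SRF, each closer to 0 than the median of the 10 genes. The 1 gene called by edgeR in these 5 comparisons was Srf in SRF (log2 fold change 3.79, SE 0.38, adjusted p = 0.00158). Itga1, an integrin that binds collagen, had 0.856 ± 0.536 CPM (SD, n = 3) in pMSCV, 4.22 ± 1.98 (n = 3) in SRF and 11.6 ± 11.3 (n = 3) in SRF-FOXO1, where its log2 fold change was 3.75 (SE 0.90, adjusted p = 0.0548, edgeR). Synm, synemin, an intermediate filament protein that joins desmin, had a log2 fold change of 2.88 in SRF-FOXO1 (SE 0.71, adjusted p = 0.0559, edgeR), where Des was at its lowest group mean.

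With the block, 5 of the 46 genes of this list that were tested were called in SRF-RELA against pMSCV, where 6.48% of all genes were. The 3 higher were Itga1 (2.35, adjusted p = 0.0318, edgeR), Synm (1.53, adjusted p = 0.0255) and Tpm2, a tropomyosin (0.48, adjusted p = 0.0471). The 2 lower were Prkg1, the cGMP-dependent kinase that relaxes smooth muscle (-1.64, adjusted p = 0.0284, edgeR), and Hspb1, a small heat shock protein (-1.32, adjusted p = 0.00365). In SRF-ICA1L, Prkg1 (-1.63, adjusted p = 0.0448, edgeR) and Hspb1 (-1.30, adjusted p = 0.0086) were the 2 of 46 called, against 2.99% of all genes. Nothing particular to the list is read from either count. The level of Prkg1 was low throughout these groups, with a mean of 0.975 CPM in pMSCV, 0.298 in SRF-RELA and 0.312 in SRF-ICA1L. The skeletal muscle relatives in the list gave values with wide spread: Lmod3, the skeletal leiomodin, had 3.58 ± 1.61 CPM (SD, n = 3) in pMSCV and 0.417 ± 0.301 (n = 3) in SRF-FOXO1, a log2 fold change of -3.08 (SE 1.18, adjusted p = 0.162, edgeR) in the group where Lmod1 had its highest mean. Myl9, the regulatory light chain of smooth muscle myosin, overlapped between all groups.

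The genes whose profiles over the 17 libraries were closest to a member differed between members. Likeness was the root-mean-square difference between log2(CPM + 0.5) profiles, each centred on its mean, over 11587 genes of at least 1 CPM on average. Acta2 was closest to the collagen IV genes Col4a2 (0.42) and Col4a1 (0.48) and to Galnt18 (0.46), and Tagln to Arc (0.41), Tpm1 (0.43) and Rhoj (0.44). Des was closest to Neurl1a (0.28), Pla1a (0.35) and Chrna1 (0.38), the muscle acetylcholine receptor subunit that is also among the myoblast markers. For Cnn1 the nearest genes were Cyp11b1 (1.19), Edn1 (1.32) and Ceacam1 (1.34), for Myh11 Edn1 (0.89), Ceacam1 (0.93) and Socs3 (0.95), so that 2 of the 3 were shared. Actg2 was nearest to Siglecg (0.84), Sema3g (0.92) and Pkp2 (0.93), Lmod1 to Vdr (0.92), Col12a1 (0.93) and Lrrc75b (0.94), and Synpo2 to Arl5b (0.39), Akap13 (0.39) and Cacna1b (0.39). A gene with a flat profile would differ from Cnn1 by 2.03, from Des by 1.19, from Synpo2 by 0.65 and from Myh11 by 1.205. It would differ from Acta2 by 0.88, from Actg2 by 1.48, from Tagln by 0.67 and from Lmod1 by 1.56. The likeness is thus close for Des, less close for Acta2, and loose for Actg2, Tagln, Cnn1, Lmod1, Synpo2 and Myh11.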

How the data were processed

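RNA was measured in 17 C2C12 libraries. The authors deposited 1 table of raw gene counts; per the submitters' processing notes, reads were handled with FastQC 0.11.8, Trimmomatic 0.39, HISAT2 and featureCounts (Subread 2.0.0) on GRCm38, and per the labels' protocols the kit was stranded. The annotation and the strand setting of counting are not given in the sources used here. Every gene in the deposited table had at least 10 counts in at least 3 libraries. Library titles gave group and number.

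Counts were scaled by TMM and tested with edgeR 4.0.16 (quasi-likelihood, robust; limma 3.58.1, R 4.3.3), with group as the only term and all 17 libraries in 1 fit over 15062 genes. Benjamini-Hochberg adjustment ran over all genes of a comparison. The biological coefficient of variation was 36.5%. DESeq2 1.42.0 was an alternative. CPM used TMM-scaled totals. The scripts were tested on simulated data.

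In the groups SRF, pMSCV, SRF-RELA and SRF-ICA1L, deviations from the group mean correlated at 0.392 to 0.789 across genes between libraries of the same number and at 0.114 at most between others. SRF-FOXO1 was paired by number with SRF alone, where libraries of the same number correlated at 0.220 to 0.330, below that range. Its values ran from 0.071 to 0.501 with SRF-ICA1L and from -0.013 to 0.454 with SRF-RELA. All pairing by number comes from the data, since the labels do not say what a number shares.

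The members and lists were chosen with earlier results of these data known. A member's fold change is printed where its unadjusted p was under 0.05 or a fit called it; the other list names at most 4 genes a comparison, with Myl9 and those called with the block added after their values were seen. Gene models were GENCODE M21.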

Additional observations from a re-analysis of the deposited data

How the results depend on the processing

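The count of called genes stayed at 0 in every comparison with DESeq2's size factors, with no filter on low counts, with at least 1 CPM in 3 libraries, and with the 12 libraries and no block. It moved as follows against pMSCV. In SRF-FOXO1 it was 2 with the replicate block over all 17 libraries (Lmod1, 3.81, adjusted p = 0.0286, and Des, -2.56, adjusted p = 0.0383, edgeR), where the numbers do not pair SRF-FOXO1 with pMSCV, 1 with the 2 groups alone and 2 with DESeq2. In SRF-ICA1L it was 3 with the replicate block in 12 libraries, 3 with that block and no filter, and 1 with DESeq2. In SRF-RELA these were 3, 4 and 4. Against SRF it was 1 in SRF-FOXO1 with the 2 groups alone (Des) and 1 in SRF-RELA with DESeq2, and in SRF-PDGFRB against SRF-RELA it was 1 with DESeq2. Leaving out each library in turn gave 0 to 1 in SRF-PDGFRB against pMSCV (Des, without SRF-PDGFRB replicate 2) and in SRF-FOXO1 against SRF-PDGFRB (Des, without SRF-PDGFRB replicate 1), and 0 elsewhere. With the block in 12 libraries it gave 0 to 3 in SRF-ICA1L and 1 to 5 in SRF-RELA against pMSCV, 0 to 1 in SRF-RELA against SRF and 0 to 1 in SRF-ICA1L against SRF-RELA. The fits with the block that leave out a library or the filter were chosen after seeing the data. Where the share of all genes called in a fit is not given in this report, its count is not read as a result about the set. This holds for the block over all 17 libraries, the 2 groups alone and the fits that leave out a library. Among single genes 1 value changed sign: Des in SRF-FOXO1 against SRF-PDGFRB was 1.22 without SRF-PDGFRB replicate 2 and -3.09 without replicate 1. Where a count moved, the cause was not tested.

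Of 15 medians 3 changed sign in at least 1 alternative: SRF-PDGFRB against pMSCV (-0.16 without pMSCV replicate 1), SRF-FOXO1 against SRF (-0.10 without SRF replicate 1, -0.17 without SRF-FOXO1 replicate 2) and SRF-ICA1L against SRF-RELA (from -0.16 to 0.26 without SRF-RELA replicate 2). Values of single genes and medians were also counted once for each alternative, so the same gene or median can enter several times. Of these values, 49 of genes passed the threshold only there, 14 of medians moved by more than the spread between libraries, and 741 were classed as the same. Other scaling shifted the median of all genes by at most 0.0115 (log2). Myh11 and Tagln are limited by few counts in most libraries, with 1 to 310 and 5 to 81 counts a library. For Tagln the part of the shared exon bases in this was not tested.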
